A study of Mus musculus with 12 samples.

Results

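Mouse quadriceps was compared between postnatal day 1 (P1) and postnatal day 5 (P5) by small RNA sequencing. The 6 libraries used, 3 at P1 and 3 at P5, were taken by their age labels from the 12 libraries of a time course that also covered P14 and P90. All mice were wild type (WT) C57BL/6J with no treatment, transgene or deletion, and the study's methods give 3 mice for each age. The time course served the study as a reference of normal muscle growth for its Mbnl1 knockout data. Whole quadriceps was homogenized, so the libraries hold the small RNA of muscle fibers together with that of vessels, blood, nerve and connective tissue.

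MiRNAs are short RNAs cut from hairpin precursors, and either the 5p or the 3p arm of the hairpin can be loaded into a silencing complex. The seed, bases 2 to 8 of the mature strand, pairs with target transcripts, so miRNAs with a common seed are grouped as a family. In the first days after birth the fibers of mouse quadriceps still take in new nuclei, embryonic and neonatal myosins are being replaced, and the tissue grows quickly. MiR-1a, miR-133a and miR-206 are the classical muscle-specific miRNAs, and all were abundant at both ages, which fits the tissue label.

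The depth of the 6 libraries was 25472336 to 26783448 counts at P1 and 30648679 to 33771032 at P5. Between 735 and 757 miRNAs had at least 10 counts per library at P1 and between 734 and 754 at P5. Levels are given as normalized CPM, that is, counts per 1000000 of the library size after scaling with TMM factors. These factors were 1.41 to 1.73 at P14 and 0.247 to 0.384 at P90. Levels at P90 therefore stand higher against the other ages than plain counts would, and depend strongly on the scaling. Of 1966 mature miRNAs in the table, 1484 had a count in at least 1 of the 6 libraries and 809 were tested. P1 replicate 2 stood apart from the other P1 libraries, with the highest levels of liver miR-122-5p (366 against 44.2 and 137 CPM), cartilage miR-140-3p (4446 against 1907 and 296 CPM) and neutrophil miR-223-3p (335 against 153 and 167 CPM). Leaving this library out lowered the number of miRNAs that differed from 36 to 10. P5 replicate 3 and P5 replicate 2 weighed as much, with 8 and 11 miRNAs differing without them, and the number was 24, 27 and 28 without P1 replicate 1, P1 replicate 3 and P5 replicate 1.

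The mature sequences below, from RefSeq (GRCm38.p6), belong to the miRNAs on which the comparison turns. The capitals mark the seed. The first group rose at P5.
miR-195a-5p: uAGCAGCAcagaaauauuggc
miR-497a-5p: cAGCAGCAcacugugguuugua
miR-378b: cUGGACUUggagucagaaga
miR-378c: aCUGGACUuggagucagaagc
miR-378d: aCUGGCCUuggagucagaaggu
let-7b-5p: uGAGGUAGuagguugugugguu
let-7c-5p: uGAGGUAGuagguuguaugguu
miR-22-3p: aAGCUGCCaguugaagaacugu
miR-29c-3p: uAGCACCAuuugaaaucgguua
miR-193a-5p: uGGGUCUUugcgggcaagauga
miR-126a-3p: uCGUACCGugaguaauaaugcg
miR-146a-5p: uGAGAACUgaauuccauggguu

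The second group holds miRNAs that fell at P5, and for miR-376b and miR-154, from an imprinted region of chromosome 12, the opposite arm is shown as well.
miR-376b-3p: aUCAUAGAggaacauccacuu
miR-376b-5p: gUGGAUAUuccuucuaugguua
miR-485-3p: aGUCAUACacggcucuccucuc
miR-154-3p: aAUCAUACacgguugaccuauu
miR-154-5p: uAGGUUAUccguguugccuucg
miR-223-3p: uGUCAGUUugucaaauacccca
miR-142a-5p: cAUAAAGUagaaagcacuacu

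MiR-195a-5p and miR-497a-5p share the seed AGCAGCA and a run of 9 bases, although they match at only 12 positions in all. Let-7b-5p and let-7c-5p differ at 1 of 22 positions. MiR-378b and miR-378c share a run of 19 bases but are cut 1 base apart, so their seeds differ in register. MiR-485-3p and miR-154-3p share the run UCAUACACGG of 10 bases, which includes all but the first base of both seeds. Near-identical family members, such as those of let-7 and miR-378, can exchange reads during counting, and the split of reads among them is uncertain.

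Between P1 and P5, 36 of the 809 miRNAs tested differed (4.45%, edgeR quasi-likelihood test, Padj under 0.05), with 22 upregulated (2.72%) and 14 downregulated (1.73%). At an unadjusted p under 0.05 the number was 123. The median log2 fold change (log2FC) over all miRNAs tested was 0.01. Of the 36 calls, 3 were later-named antisense copies of a partner, which left 21 up- and 12 downregulated miRNAs. In the 6 libraries miR-122b-3p and miR-122b-5p held exactly the counts of miR-122-5p and miR-122-3p, and miR-126b-5p differed from miR-126a-3p by at most 6 counts. The 22 upregulated miRNAs rose 1.38- to 3.00-fold and the downregulated ones fell 1.61- to 8.23-fold, and 15 of the 36 changed at least 2-fold. The libraries of both ages did not overlap for any of the 36 calls, while 263 of all 809 miRNAs (32.5%) showed such a separation. The numbers of calls in each direction depended on the scaling of the libraries. Library totals alone gave 3 up- and 37 downregulated miRNAs at a median log2FC of -0.30, and 17 of these 40 were among the 36. Of the upregulated calls, only miR-195a-5p, miR-497a-5p and miR-195a-3p held with library totals alone. No called miRNA changed sign under any of the 25 alternatives run.

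**Figure D1:**
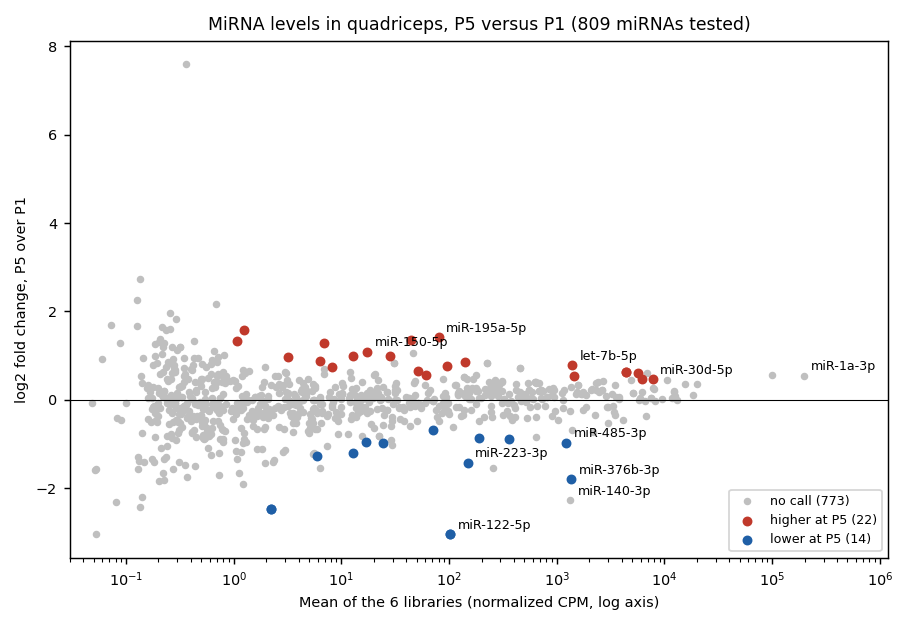
Mean level of each of the 809 miRNAs tested over the 6 libraries (normalized CPM, log axis) against the log2FC of P5 over P1, with 22 miRNAs higher at P5 in red, 14 lower in blue and those without a call in grey. The upregulated miRNAs reach up to the abundant miR-30d-5p, miR-122-5p and miR-376b-3p are the lowest calls at over 100 CPM, and miR-140-3p and miR-1a-3p lie among those without a call.

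The strongest increase among well-measured miRNAs came from a pair of hairpins on chromosome 11. MiR-195a-5p, a member of the miR-15/16 family whose members act on cyclins and other cell cycle genes, had 54.0, 32.4 and 45.3 CPM at P1 and 100.1, 120.8 and 131.2 CPM at P5. Every P5 library was thus well above every P1 library, and the log2FC was 1.42 (SE 0.21, Padj = 0.0022). Its neighbor miR-497a-5p rose alongside, from 24.9 ± 6.18 to 64.1 ± 9.70 CPM (mean ± SD of 3 libraries, as in all such pairs of values), a log2FC of 1.36 (SE 0.21, Padj = 0.0022). The hairpins span chr11:70234717-70234800 (Mir497) and chr11:70235042-70235135 (Mir195a) on the plus strand of GRCm38, with no host gene on their strand in GENCODE. The passenger arm miR-195a-3p rose as well, from 4.06 ± 1.48 to 9.86 ± 0.827 CPM (log2FC 1.28, Padj = 0.0118), although without P5 replicate 3 the call was lost at a log2FC of 1.20. MiR-195a-5p and miR-497a-5p passed in all 25 alternatives, including each of the 6 fits without a P1 or P5 library, where the log2FC was 1.22 to 1.58 and 1.15 to 1.48.

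The rest of the family gave no call. Of 11 members of the miR-15, miR-16, miR-195 and miR-497 family tested, 3 rose, all of them from these hairpins, and none fell. Over all miRNAs tested, 2.72% rose and 1.73% fell. The median of the list was 0.15, and it was -0.15 with library totals alone. Among the 6 miRNAs tested with the AGCAGCA seed, miR-195a-5p and miR-497a-5p were the upregulated ones, and the median log2FC of all 6 was 0.22. At the later ages, with TMM factors, miR-195a-5p stood at 204 ± 29.0 CPM at P14 and 524 ± 113 at P90. MiR-497a-5p stood at 119 ± 9.71 and 104 ± 23.0 CPM.

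The miR-378 family also went up nearly as a whole. MiR-378a lies in an intron of Ppargc1b and is known from mitochondrial metabolism, and the numbered paralogs carry related sequences at other loci. Of 5 members tested, 4 were upregulated, against 2.72% of all miRNAs tested. All 5 had every P5 library above every P1 library, as did 133 of all 809 miRNAs (16.4%). MiR-378d had 19.4, 16.8 and 20.4 CPM at P1 and 32.2, 41.9 and 39.1 CPM at P5, with a gap between the ages (log2FC 1.00, SE 0.16, Padj = 0.0022). MiR-378c rose from 99.3 ± 13.3 to 180 ± 17.9 CPM (log2FC 0.86, Padj = 0.0037). Both calls held without each of the 6 libraries but not with library totals alone, where the log2FC was 0.70 and 0.56. The abundant miR-378a-3p increased from 5178 ± 654 to 7198 ± 261 CPM (log2FC 0.48, Padj = 0.044), yet this call was lost whichever P1 or P5 library was left out (0.35 to 0.52). MiR-378b had a log2FC of 0.74 and kept its call without P5 replicate 1 alone among the 6 (0.61 to 0.90), and miR-378a-5p had 0.47 without passing (Padj = 0.078). Because the members share long runs of sequence, they are not independent measurements.

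Chromosome 11 also holds miR-193a and a copy of miR-365, 2 hairpins (chr11:79711969-79712034 and chr11:79726400-79726511). Both miRNAs were placed on the list of brown fat lineage miRNAs, together with miR-193b. MiR-193a-5p had 9.45, 7.80 and 8.46 CPM at P1, and its mean was 1.99-fold higher at P5. The libraries were well separated for so low a level, and the log2FC of 1.00 (SE 0.16, Padj = 0.0022) held without each of the 6 libraries but not with library totals alone (0.70). MiR-365-3p rose from 49.8 ± 2.61 to 73.2 ± 9.80 CPM (log2FC 0.56, Padj = 0.0387), a call that no fit without a P1 or P5 library kept (0.47 to 0.66). MiR-365-3p has a further copy on chromosome 16, and its reads cannot be assigned to either. On the list of brown fat lineage miRNAs, 2 of 9 tested were thus upregulated, against 2.72% of all miRNAs, and neither arm of miR-193b was called. The 1 downregulated member, against 1.73% of all miRNAs, was miR-455-5p, from an intron of Col27a1. It fell from 22.4 ± 8.52 to 11.5 ± 1.29 CPM (log2FC -0.96, Padj = 0.0498). Of the 6 fits without a P1 or P5 library, the miR-455-5p call survived only that without P1 replicate 3, and without P1 replicate 2 the log2FC was -0.67.

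Let-7 miRNAs, which restrain growth regulators such as Lin28 and Igf2bp transcripts and accumulate as tissues mature, gave 2 calls, both upward. Let-7b-5p had 1009, 1031 and 1050 CPM at P1 and 1886, 1694 and 1711 CPM at P5, a narrow spread at both ages, with a log2FC of 0.78 (SE 0.16, Padj = 0.016). Let-7c-5p increased from 4484 ± 273 to 6795 ± 311 CPM (log2FC 0.60, SE 0.16, Padj = 0.039). Of 9 let-7 guide strands tested, let-7b-5p and let-7c-5p were called, against 2.72% of all miRNAs upregulated, and 7 had all P5 libraries above all P1 libraries, against 16.4% of all miRNAs. The most abundant member, let-7f-5p, had 13608 ± 387 and 17549 ± 112 CPM, a log2FC of 0.37 that did not pass (Padj = 0.176). The family median was 0.37 with TMM factors and 0.07 with library totals alone, under which neither call held (let-7b-5p 0.47, let-7c-5p 0.29). Let-7b-5p also lost its call when P1 replicates 1 or 2 (0.74 and 0.76) or P5 replicates 1 or 3 (0.72 and 0.79) were left out, and let-7c-5p whichever of the 6 was left out (0.55 to 0.63). The hairpins of let-7b and let-7c-2 adjoin each other in an lncRNA on chromosome 15 (chr15:85707319-85707403 and chr15:85706603-85706697), and let-7c-1 is on chromosome 16.

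The remaining abundant upregulated miRNAs were miR-22-3p, miR-126a-3p and miR-30d-5p. With library totals alone their log2FC were 0.25, 0.33 and 0.16, and none of them passed. MiR-22-3p, a miRNA enriched in striated muscle, had 1312, 1061 and 1154 CPM at P1 and 1673, 1717 and 1752 CPM at P5 (log2FC 0.54, SE 0.12, Padj = 0.022). Its passenger arm miR-22-5p rose from 40.5 ± 4.29 to 63.4 ± 2.83 CPM (log2FC 0.65, Padj = 0.021), so both arms were called in the same direction. Without P1 replicate 2 the log2FC were 0.45 and 0.54 and without P5 replicate 2 they were 0.54 and 0.61, and neither arm passed in these fits or without P5 replicate 3 (0.52 and 0.65). MiR-22-3p also lost its call without P1 replicate 3 (0.52). The hairpin (chr11:75463716-75463810) lies in an exon of the lncRNA Mir22hg. By P90 miR-22-3p stood at 28705 ± 3387 CPM.

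MiR-30d-5p increased by the smallest fold of the calls, from 6605 ± 258 to 9098 ± 427 CPM (log2FC 0.46, Padj = 0.036), and no fit without a P1 or P5 library kept the call (0.42 to 0.48). It belongs to a family in which all 12 members tested had a log2FC above 0, and in 9 of them the P5 libraries were all above the P1 libraries, against 16.4% of all miRNAs. None of the other 11 passed the test, and the family median of 0.34 became 0.04 with library totals alone. Among all miRNAs tested, 407 had a positive log2FC.

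MiR-29c-3p, of a family that represses collagens and other matrix genes, went up from 4.49 ± 0.577 to 8.27 ± 0.889 CPM (log2FC 0.88, Padj = 0.030). It was still far from its level at P90, 458 ± 117 CPM, and at P14 it stood at 9.07 ± 1.84 CPM. Leaving out P1 replicates 1 or 2 (0.84 and 0.78) or P5 replicates 2 or 3 (0.80 and 0.90) ended the call. Its relative miR-29a-3p, with the same seed, had 123, 196 and 116 CPM at P1 and 102, 126 and 111 CPM at P5, so that the ages overlapped (log2FC -0.36, Padj = 0.412).

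The lowest upregulated calls were miR-12191-3p (0.626 ± 0.219 to 1.89 ± 0.875 CPM, log2FC 1.58), miR-3057-5p (0.604 ± 0.145 to 1.53 ± 0.397 CPM, log2FC 1.34) and miR-7068-3p (2.15 ± 0.482 to 4.23 ± 0.136 CPM, log2FC 0.98). Of the 6 fits without a P1 or P5 library, miR-12191-3p passed only without P5 replicate 1 and miR-7068-3p only without P1 replicate 1, while miR-3057-5p passed in none, over ranges of 1.13 to 1.89, 0.81 to 1.13 and 1.14 to 1.52. In all, 9 of the 36 calls had a mean under 10 CPM.

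**Figure D2:**
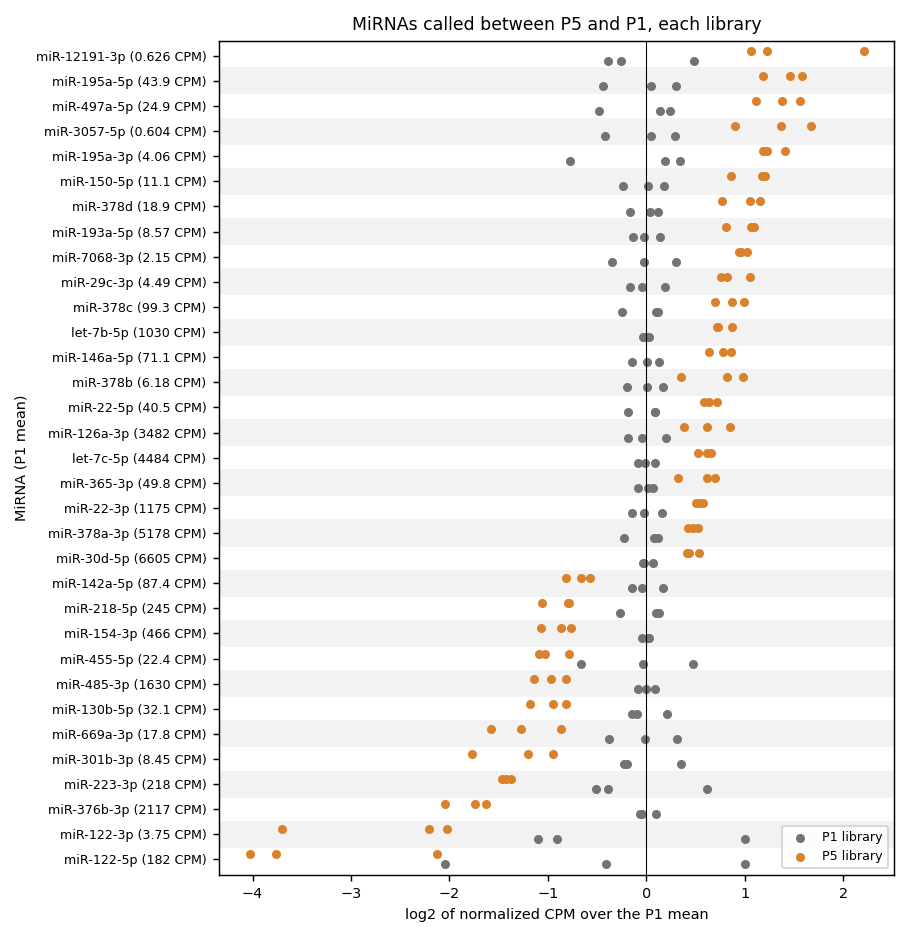
Log2 of the normalized CPM of each library over the mean of the P1 libraries, for the 33 called miRNAs without antisense copies, ordered by log2FC, with P1 libraries in grey and P5 libraries in orange. The P5 points of each miRNA lie on a single side of its P1 points, with miR-122-5p the closest to touching (44.2 CPM at P1 and 41.9 at P5).

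The downregulated miRNAs with the smallest Padj were 3p arms from the Dlk1-Dio3 region of chromosome 12, although miR-122-5p, described further on, fell by a larger fold. This imprinted region expresses its miRNAs from the maternal chromosome, and most of them are high in the fetus and decline after birth. MiR-376b-3p had 2263, 2029 and 2060 CPM at P1 and 515, 682 and 632 CPM at P5. The ages were far apart, and the log2FC was -1.80 (SE 0.18, Padj = 6.3e-05), the smallest Padj of the comparison. MiR-485-3p had 1728, 1624 and 1537 CPM at P1 and 833, 926 and 738 CPM at P5 (log2FC -0.97, SE 0.19, Padj = 0.0094). MiR-154-3p had 471, 451 and 475 CPM at P1 and 221, 274 and 255 CPM at P5 (log2FC -0.90, SE 0.14, Padj = 0.0022). For all 3 miRNAs the gap between the ages was wider than the spread within either. MiR-376b-3p and miR-154-3p passed in all 25 alternatives, and miR-485-3p in all but that without P5 replicate 3 (log2FC -0.90). The hairpins lie at chr12:109723458-109723539 (Mir376b), chr12:109734902-109734974 (Mir485, in an exon of the lncRNA Mirg) and chr12:109738433-109738498 (Mir154, in an intron of Mirg).

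Few members of the region were called. Of 75 miRNAs tested from the Mirg cluster, these 3 were downregulated (4%) and none was upregulated, against 1.73% and 2.72% of all miRNAs tested. The cluster had 36 log2FC above 0, 39 below 0 and a median of -0.01. Of 10 miRNAs tested from the hairpins opposite Rtl1, none was called, and their median was 0.17 (-0.13 with library totals alone). The summed level of the Mirg cluster was 82312 to 93411 CPM in the P1 libraries and 84260 to 91179 CPM in the P5 libraries, with overlapping ranges.

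The 5p arms of the 3 hairpins were not called, and none had a log2FC below 0. MiR-376b-5p had 228, 188 and 191 CPM at P1 and 242, 290 and 274 CPM at P5 (log2FC 0.41, Padj = 0.38). MiR-485-5p had 260, 254 and 282 CPM at P1 and 362, 388 and 320 CPM at P5 (log2FC 0.43, Padj = 0.244). Both of these arms had a higher level in every P5 library than in any P1 library, without passing the test, while their partners had a lower one. MiR-154-5p had 39.2 ± 4.36 and 41.2 ± 7.62 CPM with overlapping ages (log2FC 0.07, Padj = 0.961).

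The arm ratio, the raw count of the 3p arm over that of the 5p arm in the same library, is free of any scaling between libraries. It was computed after these values were seen and restates them within each library, so no test is given. For miR-376b it was 9.92, 10.8 and 10.8 at P1 and 2.12, 2.35 and 2.31 at P5. For miR-485 it was 6.64, 6.40 and 5.45 at P1 and 2.30, 2.39 and 2.31 at P5. For miR-154 it was 12.9, 10.2 and 12.9 at P1 and 4.50, 8.06 and 6.29 at P5. In each hairpin all P5 ratios were below all P1 ratios. The changes in log2 ratio were -2.21, -1.40 and -0.97. With each of the 6 libraries left out in turn they were -2.25 to -2.17, -1.48 to -1.34 and -1.17 to -0.75.

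Among the 89 hairpins with a mean of at least 10 CPM on both arms, these were the 3 largest decreases of the 3p to 5p ratio. The median change over the 89 hairpins was -0.05, with quartiles of -0.23 and 0.10. The 23 hairpins of the Mirg cluster had a median of -0.21 and the other 66 a median of 0.00. Changes below -0.5 were seen in 3 of the 23 and in 2 of the 66 (miR-669a and miR-140). At P14 the mean ratios of miR-376b, miR-485 and miR-154 were 0.719, 0.277 and 0.772 and at P90 they were 0.479, 1.02 and 2.23, so the 5p arm held the larger count of all 3 hairpins at P14. MiR-380-3p of the same cluster, named here after its value was seen, had 1714 ± 156 and 1070 ± 155 CPM (log2FC -0.68, Padj = 0.052) and fell just short of the threshold. It passed, among others, with library totals alone (-0.98), DESeq2 (-0.64) and the P1 and P5 libraries only (-0.71). With all ages fitted, it did not pass once any P1 or P5 library was left out.

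**Figure D3:**
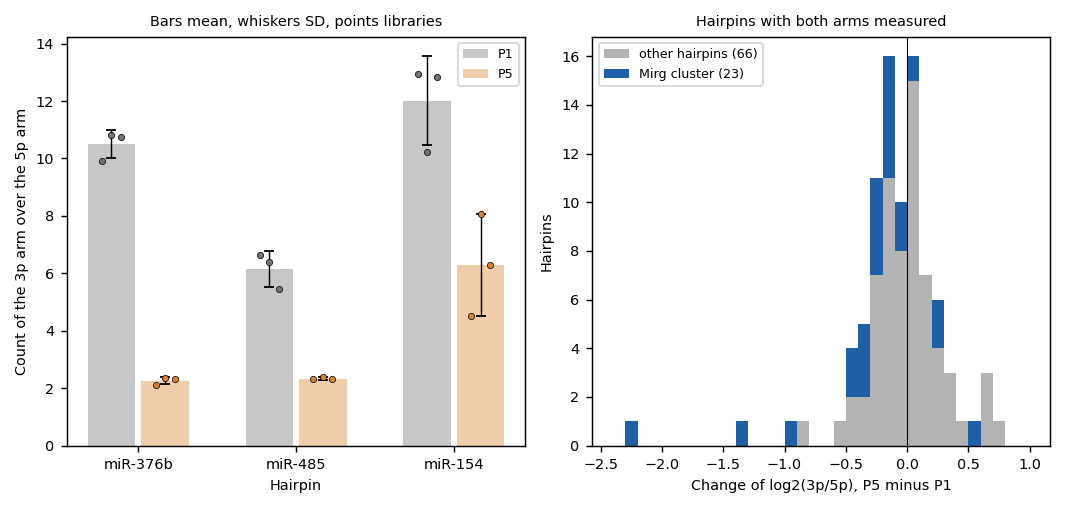
Left, count of the 3p arm over that of the 5p arm for 3 hairpins of the Dlk1-Dio3 region at P1 (grey) and P5 (orange), with bars for the mean, whiskers for the SD and points for the 3 libraries. Right, change of log2(3p/5p) from P1 to P5 in 89 hairpins, where the 23 of the Mirg cluster are blue and the other 66 are grey, and the leftmost 3 hairpins, at -2.21, -1.40 and -0.97, are miR-376b, miR-485 and miR-154.

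In the other hairpins the arms mostly went together. Of 21 hairpins with a called arm and the other arm tested, 18 remain without miR-376b, miR-485 and miR-154, and 16 of these 18 had both arms on the same side of 0. Both arms were called in 3 hairpins (miR-195a, miR-22 and miR-122), each time in the same direction.

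Downregulated miRNAs of other cell types came next. MiR-122, which makes up most of the miRNA of hepatocytes, is not a muscle miRNA. MiR-122-5p had 44.2, 366 and 137 CPM at P1 and 41.9, 13.4 and 11.2 CPM at P5, with a wide spread among the P1 libraries. The log2FC was -3.04 (SE 0.67, Padj = 0.021), and the call did not survive leaving out P1 replicate 2 (-2.06) or P5 replicates 2 or 3 (-2.78 and -2.73). MiR-122-3p went the same way at a far lower level, from 3.75 ± 3.25 to 0.674 ± 0.339 CPM (log2FC -2.47, Padj = 0.021), and was lost without the same libraries (-1.49, -2.12 and -2.64). The miR-140 arms, abundant in cartilage, behaved alike without a call. MiR-140-3p had 1907, 4446 and 296 CPM at P1 and 704, 182 and 483 CPM at P5, so the ages overlapped (log2FC -2.28, SE 0.75, Padj = 0.117), and miR-140-5p had a log2FC of -1.54 (Padj = 0.256). Whether such miRNAs came from neighboring tissue or from blood was not tested.

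White cell miRNAs split in both directions. In bulk tissue, fewer cells of a type and less RNA per cell cannot be told apart. Of 8 white cell miRNAs tested, 2 were downregulated and 2 upregulated, against 1.73% and 2.72% of all miRNAs tested. The summed level of the list was 361 to 569 CPM at P1 and 304 to 323 CPM at P5. The downregulated ones were miR-223-3p, the main miRNA of neutrophils and other myeloid cells, and miR-142a-5p, found in all blood cell lineages. MiR-223-3p had 153, 335 and 167 CPM at P1 and 84.2, 79.0 and 81.5 CPM at P5, close together at P5 and wide apart at P1 (log2FC -1.42, SE 0.29, Padj = 0.014). Its call ended when P1 replicate 2 (-0.99) or P5 replicates 2 or 3 (-1.40 and -1.43) were left out. MiR-142a-5p had 79.2, 98.4 and 84.7 CPM at P1 and 58.6, 55.2 and 49.5 CPM at P5 (log2FC -0.68, Padj = 0.021), and its call depended on the same libraries (-0.61, -0.69 and -0.63). Their other arms, miR-223-5p and miR-142a-3p, had log2FC of -1.22 (Padj = 0.075) and -0.82 (Padj = 0.095).

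Upward went miR-150-5p, the miRNA of mature lymphocytes, and miR-146a-5p, which dampens innate immune signaling. MiR-150-5p had 12.7, 9.46 and 11.3 CPM at P1 and 20.2, 25.7 and 25.2 CPM at P5, with every P5 library above the P1 range (log2FC 1.09, SE 0.17, Padj = 0.0022). This call held without each of the 6 libraries (0.96 at the lowest) but not with library totals alone (0.79). MiR-146a-5p rose from 71.1 ± 6.90 to 121 ± 9.15 CPM (log2FC 0.76, Padj = 0.039), and this call was lost whichever P1 or P5 library was left out (0.68 to 0.81). With TMM factors, miR-150-5p stood at 106 ± 5.29 CPM at P14 and 152 ± 27.4 CPM at P90. The red cell miRNA miR-451a did not pass, with 227 ± 4.76 CPM at P1 and 280 ± 35.4 at P5 (log2FC 0.30, Padj = 0.582), and none of the 3 red cell miRNAs tested was called.

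MiR-126a-3p, the endothelial miRNA encoded in Egfl7 and required for vessel integrity, had 3998, 3067 and 3381 CPM at P1 and 4544, 6272 and 5351 CPM at P5. All P5 libraries were above the P1 libraries, and the log2FC was 0.63 (SE 0.15, Padj = 0.033). The opposite-strand miR-126b-5p held nearly the same counts, at most 6 apart at 132906 counts or more per library, so the strand of these reads is uncertain. The call ended when P1 replicates 2 or 3 (0.53 and 0.59) or P5 replicates 2 or 3 (0.50 and 0.63) were left out. MiR-126a-5p had a log2FC of 0.72 (Padj = 0.065). On the list of endothelial and smooth muscle miRNAs, 1 of 6 was called, all 6 had a log2FC above 0, and in 5 the P5 libraries were all above the P1 libraries, against 2.72% of all miRNAs upregulated and 16.4% separated upward. The smooth muscle miRNA miR-143-3p, the third most abundant of the table, had 17726 ± 1487 and 22750 ± 2004 CPM (log2FC 0.36, Padj = 0.176).

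Neural and epithelial miRNAs gave no calls among 6 and 11 tested. All 6 neural miRNAs had a log2FC above 0 (median 0.57). Of the 11 epithelial miRNAs, 8 were below 0 and 3 above (median -0.32). MiR-9-5p, a neuronal miRNA singled out after its values were seen, had 314 CPM in P5 replicate 3 against 77.6 and 94.4 in the other P5 libraries, and miR-124-3p had 28.4 against 7.32 and 7.74 CPM. The P5 levels of both thus rest on that library. The epidermal miRNA miR-203-3p, the highest of the epithelial list, had 107, 238 and 144 CPM at P1 and 239, 381 and 250 CPM at P5 (log2FC 0.83, Padj = 0.351).

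**Figure D4:**
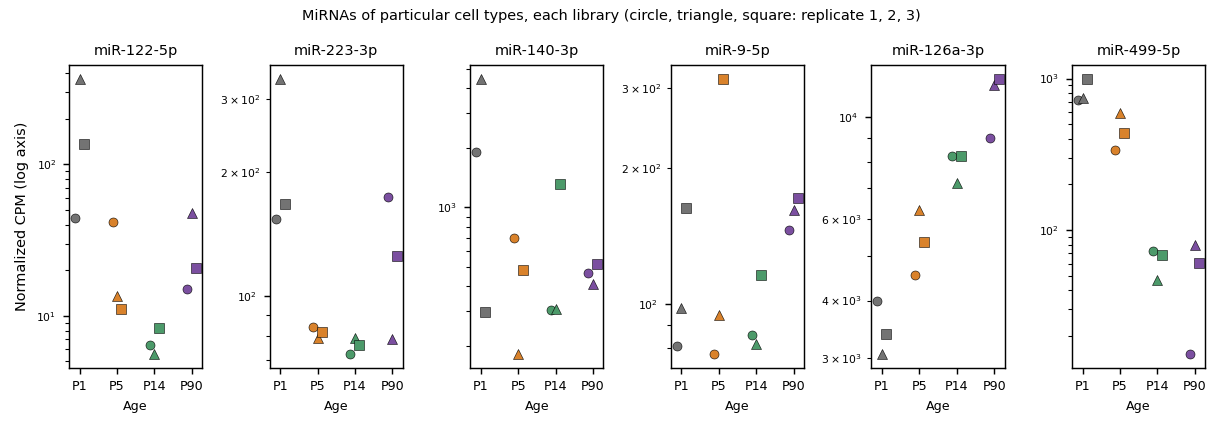
Normalized CPM (log axis) of 6 miRNAs of particular cell types in all 12 libraries by age, where circle, triangle and square stand for replicate 1, 2 and 3. P1 replicate 2 (triangle) is the highest P1 library for miR-122-5p, miR-223-3p and miR-140-3p, P5 replicate 3 (square) is the highest for miR-9-5p at 314 CPM, miR-126a-3p is higher in all P5 than in all P1 libraries, and miR-499-5p is lower in all P5 than in all P1 libraries.

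The last group of downregulated miRNAs has no common cell type. MiR-218-5p, from introns of Slit2 and Slit3, had 204, 268 and 263 CPM at P1 and 118, 141 and 142 CPM at P5, with no overlap (log2FC -0.87, SE 0.20, Padj = 0.022). Among the 6 fits it passed only without P1 replicate 1, over a range of -1.01 to -0.79. MiR-130b-5p and miR-301b-3p come from adjacent hairpins on chromosome 16 (chr16:17124061-17124142 and chr16:17124400-17124496), in an intron of 2610318N02Rik. MiR-130b-5p fell from 32.1 ± 4.44 to 16.3 ± 2.08 CPM (log2FC -0.98, Padj = 0.039) and miR-301b-3p from 8.45 ± 2.00 to 3.51 ± 0.969 CPM (log2FC -1.27, Padj = 0.021). The other arm of the former, miR-130b-3p, had a log2FC of -0.64 (Padj = 0.326). The miR-130b-5p call was lost without any 1 of the 6 libraries (-1.07 to -0.88), and that of miR-301b-3p without P1 replicate 2 (-1.07) or any P5 library (-1.46 to -1.07). MiR-669a-3p, of the Sfmbt2 intron cluster with its many near-identical copies, fell from 17.8 ± 4.22 to 7.70 ± 1.91 CPM (log2FC -1.21, Padj = 0.028), a call that ended when P1 replicates 1 or 2 (-1.23 and -1.04) or P5 replicates 2 or 3 (-1.06 and -1.19) were left out.

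None of the 9 muscle-specific miRNAs tested passed the threshold. MiR-1a-3p, which promotes the differentiated state, had 183646, 130785 and 167227 CPM at P1 and 236995, 249492 and 217754 CPM at P5, so every P5 library was above every P1 library (log2FC 0.55, SE 0.22, Padj = 0.197). The same was true of miR-133a-3p, transcribed together with it, which had 5439 ± 529 and 8286 ± 1026 CPM (log2FC 0.61, SE 0.18, Padj = 0.075). MiR-133a-3p passed with RLE (0.65) and upper-quartile factors (0.63), DESeq2 (0.65), and a mean of at least 10 CPM (0.55). Both miR-133a-3p (0.59) and miR-1a-3p (0.53) passed with no filter on low counts. With library totals alone neither passed, nor with all ages fitted and any P1 or P5 library left out. MiR-206-3p, the regeneration-associated relative of miR-1a, had 16888, 17139 and 18919 CPM at P1 and 21640, 17377 and 17900 CPM at P5, with overlapping ages (log2FC 0.10, Padj = 0.807). MiR-133b-3p, from the same lncRNA as miR-206, had a log2FC of -0.39 (Padj = 0.378). The list had a median of 0.39 (0.09 with library totals alone), with 7 members above 0 and 2 below.

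As a share of all counts, miR-1a-3p took 26.8%, 22.2% and 26.2% at P1 and 30.2%, 30.8% and 28.8% at P5 (exact permutation test, 2-sided, p = 0.1, the smallest possible). The 5 most abundant miRNAs together took 45.5% ± 3.32 at P1 and 52.6% ± 1.34 at P5 (exact permutation p = 0.1). MiR-1b-5p, on the strand opposite a miR-1a hairpin, is among these 5 and its own reads cannot be told apart from those of miR-1a-3p.

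The miRNAs in introns of slow and cardiac myosin genes had the opposite sign. MiR-499-5p, encoded in Myh7b, had 722, 749 and 991 CPM at P1 and 335, 592 and 440 CPM at P5, with no overlap (log2FC -0.85, SE 0.40, Padj = 0.327). MiR-208b-3p, encoded in Myh7, had 7.25 ± 2.03 and 4.60 ± 1.78 CPM (log2FC -0.65, Padj = 0.411). All 4 tested members of this list were below 0 (median -0.75), and none was called. MiR-499-5p passed with no filter on low counts (-0.87) and without P90 replicate 1 (-0.86). In the fit with the 6 libraries alone, where 87 of 741 miRNAs differed (11.7%), 39 of them upregulated (5.26%) and 48 downregulated (6.48%), 4 of the 13 muscle-specific and myosin intron miRNAs passed, miR-1a-3p (0.52) and miR-133a-3p (0.58) upward and miR-499-5p (-0.88) and the low miR-206-5p (-0.77) downward. None of the 13 passed when P1 replicate 2 was also left out, where these 4 had log2FC of 0.40, 0.53, -0.94 and -0.73.

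**Figure D5:**
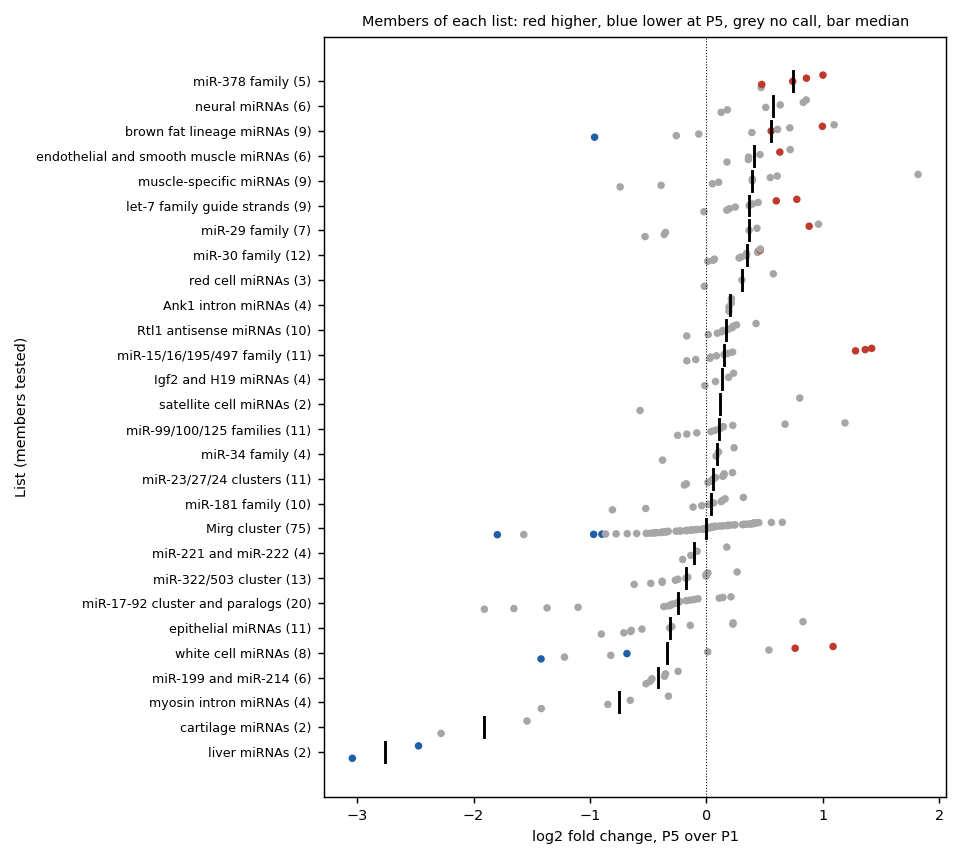
Log2FC of P5 over P1 for the tested members of 28 miRNA lists (number tested in parentheses), ordered by the median (black bar), with calls in red (higher at P5) and blue (lower). The miR-378 family is at the top with a median of 0.74, and the liver, cartilage and myosin intron lists are at the bottom with -2.76, -1.91 and -0.75.

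The lists of miR-17-92 and its paralogs, miR-322 and miR-503, and miR-199 and miR-214 had no member called and medians below 0. The miR-15/16 family described above, also linked to the cell cycle, had 3 members upregulated and a median of 0.15. In the growth-promoting miR-17-92 cluster and its paralogs, 17 of 20 members were below 0 (median -0.25), and for 8 of them all P5 libraries were below all P1 libraries, as they were for 130 of all 809 miRNAs (16.07%). Examples are miR-18a-5p, with 88.8 ± 0.662 CPM at P5, 1.25-fold below P1 (log2FC -0.32, Padj = 0.332), and miR-19b-3p, with 94.5 ± 4.01 and 76.5 ± 1.92 CPM (log2FC -0.30, Padj = 0.45). In the cluster of miR-322 and miR-503 on the X chromosome, which acts in the cell cycle exit of myoblasts, 11 of 13 were below 0 (median -0.18) and 6 were separated in that direction, against 16.07% of all miRNAs, with miR-450b-5p the lowest at 133 ± 12.2 and 86.5 ± 9.72 CPM (log2FC -0.62, Padj = 0.123).

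MiR-199 and miR-214, mesenchymal miRNAs transcribed in large part from Dnm3os, had all 6 tested arms below 0 (median -0.41), and 5 had every P5 library below every P1 library, against 16.07% of all miRNAs. MiR-199a-5p had 3555, 3778 and 3141 CPM at P1 and 2747, 2017 and 2546 CPM at P5 (log2FC -0.52, Padj = 0.078). Members of a cluster are cut from common transcripts and are not independent measurements. The signs of these 3 medians were the same with every scaling tried.

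Further lists without a call, with medians of -0.11 to 0.20, included the miR-23/27/24 clusters (11 tested, median 0.06) and the miR-181 family (10 tested, 0.04). The miR-99, miR-100 and miR-125 families (11 tested, 0.11) belonged here too. Also among them were miR-221 and miR-222 (4 tested, -0.11), the miR-34 family (4 tested, 0.09) and the Igf2 and H19 miRNAs (4 tested, 0.13). The same held for the satellite cell miRNAs (2 tested, 0.12) and the Ank1 intron miRNAs (4 tested, 0.20). With library totals alone all 8 of these medians were below 0. The 2 satellite cell miRNAs went in opposite directions, with log2FC of -0.57 and 0.80, so their median describes neither. The 4 Ank1 intron miRNAs are the arms of miR-486a and of its later-named antisense copy miR-486b, so they are not independent measurements.

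Among miRNAs outside the lists of calls, the largest separated differences at a mean of at least 10 CPM included miR-653-5p (30.2 ± 5.28 and 62.8 ± 23.1 CPM, log2FC 1.06, Padj = 0.067), the hypoxia miRNA miR-210-3p (38.0 ± 7.59 and 20.3 ± 6.08 CPM, log2FC -0.91, Padj = 0.061), miR-183-5p (39.8 ± 6.29 and 19.4 ± 4.72 CPM, log2FC -1.04, Padj = 0.436) and miR-148a-5p (19.6 ± 5.67 CPM at P1 and 1.76-fold lower at P5, log2FC -0.82, Padj = 0.075). In each of them the ages did not overlap, yet the test was not passed. Each passed with no filter on low counts and in the fit with the 6 libraries alone, and all but miR-183-5p with DESeq2. None of them passed without P1 replicate 2.

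The step from P14 to P90 shares no library with the step from P1 to P5, so the miRNAs called here were followed in it. Of the 21 upregulated miRNAs, 11 rose again, 4 fell and 6 had no call, at a median log2FC of 0.46. Of the 12 downregulated ones, 7 fell again, 4 rose and 1 had no call, at a median of -1.14. Over all miRNAs tested, 22.4% rose and 36.7% fell between P14 and P90, at a median of -0.55. These directions rest on TMM factors, which were 1.41 to 1.73 at P14 and 0.247 to 0.384 at P90. No other scaling was run for this step, so a modest rise or fall in it is uncertain. MiR-376b-3p, miR-485-3p and miR-154-3p reached 10.8 ± 3.19, 11.9 ± 2.99 and 5.45 ± 0.81 CPM at P90. With these factors, those that turned included let-7b-5p and let-7c-5p. They stood at 5077 ± 964 and 14944 ± 2407 CPM at P14 and at 2253 ± 472 and 8084 ± 1716 CPM at P90. Others were the blood miRNAs miR-223-3p and miR-142a-5p. These were at 75.8 ± 3.41 and 31.6 ± 2.51 CPM at P14 and at 126 ± 47.5 and 79.6 ± 8.53 CPM at P90.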

How the data were processed

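Small RNA from the quadriceps of 12 WT C57BL/6J mice (P1, P5, P14 and P90, n = 3 each) was counted per mature miRNA. According to the submitters' processing notes and the study's methods, reads of 10 to 35 nt were kept with cutadapt 1.18, aligned to GRCm38 with Bowtie2 2.4.1 and counted with featureCounts 2.0.1 on miRBase 22. The authors tested them with DESeq2 1.30.1. The deposited values are raw counts with no normalization. The strand option of the counting is not given in the sources used here, and near-identical and antisense miRNAs may share reads. The study's methods mention no molecular identifiers.

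MiRNAs were kept with filterByExpr (minimum count 10) over the 4 ages, scaled with TMM factors and fitted with edgeR 4.0.16 in R 4.3.3 as a quasi-likelihood model of all 12 libraries, which share the estimate of the spread. Padj values are Benjamini-Hochberg adjusted over the 809 miRNAs tested, 2-sided, and the threshold was 0.05. SEs were derived from the F statistic. The test was checked on simulated counts. Single values were compared with exact permutation tests in scipy 1.17.1, which cannot go below p = 0.1 with 3 against 3 libraries. Positions and sequences came from RefSeq (GRCm38.p6), which gave a sequence for 688 of the 809 miRNAs, and host genes from GENCODE vM39.

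The text names the called miRNAs and their other arms, the 5 most abundant, the muscle and myosin intron miRNAs, the largest uncalled separated differences and up to 2 members per list at a mean of at least 10 CPM. The members and lists were chosen with earlier results of these data known. The alternatives comprised other scalings, filters, tools and sets of libraries, and 2 of them were added after the data were seen.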

Additional observations from a re-analysis of the deposited data

How the results depend on the processing

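The number of miRNAs that differed between P1 and P5 (36, with 22 higher and 14 lower at P5) depended on the libraries and the fit. It was 62 with no filter on low counts (33 lower), 81 with DESeq2 (50 and 31), and 87 with the P1 and P5 libraries only (39 and 48), where all 36 were among them. Library totals alone gave 3 higher and 37 lower, a mean of at least 10 CPM gave 24 lower, and leaving out the P14 libraries gave 14 higher. Leaving out 1 library of any age gave 8 to 51 miRNAs, 6 to 31 of them higher and 2 to 20 lower. The lowest number came without P5 replicate 3, and without P1 replicate 2 it was 10. The P14 libraries weighed less, with 26 and 29 miRNAs without their replicates 1 and 3. Leaving out P1 replicate 2 with the P1 and P5 libraries only, added after the data were seen, gave 22 (13 and 9). RLE (46) and upper-quartile factors (40), robust estimation (41) and leaving out antisense copies (37) kept the number within 1.5-fold. Of the 36 calls, 8 held without each of the 6 P1 and P5 libraries (miR-376b-3p, miR-195a-5p, miR-497a-5p, miR-378d, miR-150-5p, miR-154-3p, miR-193a-5p and miR-378c) and 7 in none of these fits. MiR-206-3p turned to -0.20 with library totals alone and ranged from -0.01 to 0.17 with 1 library left out, and miR-154-5p turned to -0.24 and ranged from -0.08 to 0.20. The causes were not tested.

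With the replicate number as a block, 15 miRNAs differed (9 higher and 6 lower), and 18 (10 and 8) in the block fit of the P1 and P5 libraries only. Of the muscle miRNAs that passed with these 6 libraries, miR-133a-3p alone passed with the block (0.57). Deviations of same-numbered P1 and P5 libraries from their age means correlated at -0.002, -0.051 and 0.015, and those of differently numbered ones at -0.048 to 0.049. With 3 libraries per age, whose deviations sum to 0, these values cannot settle whether the numbers pair the libraries.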
